A study of Mus musculus with 28 samples.

Results

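Open chromatin was compared between fibroblast cultures labelled MEF10_MyoD+FRG_Day6 and cultures labelled MEF10_MN+FRG_Day6, both sampled at day 6 and each measured in 2 libraries. These are 4 of the 28 libraries of the series, which were grouped in duplicate into 14 groups. A region was assigned to MyoD+FRG when both of its libraries called a peak there and neither MN+FRG library did, and to MN+FRG in the reverse case. By that rule 3052 regions were MyoD+FRG-only and 20128 were MN+FRG-only, out of 130296 regions called in any of the 4 libraries and 253225 called in any of the 28.

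The study followed mouse embryonic fibroblasts (MEFs) as they became muscle progenitor-like cells. Per the labels' protocols the fibroblasts came from E13.5 embryos and carried Rosa-rtTA, which makes the doxycycline-responsive activator, Col1a1-tetO-MyoD, a MyoD transgene under its control, and a Pax7-nGFP reporter. The progenitor medium held basic FGF at 10 ng/ml, forskolin at 5 µM, RepSox at 5 µM, the GSK3β inhibitor CHIR99021 at 3 µM and doxycycline at 2 µg/ml. FRG was read here as the initials of the small molecules forskolin, RepSox and GSK3β inhibitor. The labels define neither MN nor the prefixes MEF10 and MEF14, and give 1 protocol text for all samples, so MN is used only as a label, and whether doxycycline or a separate vector supplied MyoD and MN in MEF10 cells is not stated.

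The other 24 libraries place the 2 MEF10 groups. They are untreated fibroblasts at day 0, fibroblasts in FRG without doxycycline at day 8, fibroblasts in doxycycline alone (Dox) at days 4 and 8, fibroblasts in doxycycline with FRG (Dox+FRG) at days 2, 4, 6 and 8, samples of Dox+FRG labelled GFP at days 8 and 10, and quiescent and activated satellite cells, the latter from adult Pax7-nGFP mice. No MEF10 culture at day 0 or without a factor was analysed here, so each MEF10 group was set against the other and against MEF14 cells.

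MyoD is a basic helix-loop-helix transcription factor that binds E-box DNA and can switch fibroblasts to a muscle programme, opening closed chromatin at many of its sites. Satellite cells are the stem cells of adult muscle. They rest in a quiescent state marked by Pax7, and once activated they divide and express MyoD. ATAC-seq reads open chromatin through a transposase that cuts accessible DNA, so a called peak marks a stretch where cuts were concentrated. In a bulk culture, fewer cells with an open site and a weaker opening in every cell cannot be told apart.

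The MyoD+FRG libraries differed in the form of their peak lists, and this touches every result below. Replicate 1 held 37301 peaks, the fewest of all 28 lists, of which 91.9% were 155 bp wide, covering 7.85 Mb in all. Replicate 2 held 91401 peaks with a median width of 722 bp, of which 31.9% had the most common width of 500 bp. Its peaks covered 92.9 Mb, 8748 of them were wider than 2000 bp and 34 were wider than 10000 bp.

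The MN+FRG lists were alike. Replicate 1 held 93086 peaks, 85.9% of them 123 bp wide, and replicate 2 held 93730 peaks, 83.4% of them 111 bp wide. They covered 20.2 and 20.4 Mb. The other 24 lists held 37910 to 134997 peaks with median widths of 61 to 205 bp and no peak above 3968 bp, so MyoD+FRG replicate 2 stood outside the range of all 27 other lists in width. Its widest peak, at chr4:139236687-139439151 (mm9), spanned 202465 bp, where the other MEF10 lists had 4, 5 and 7 separate peaks and the 24 remaining lists had 3 to 24.

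**Figure D1:**
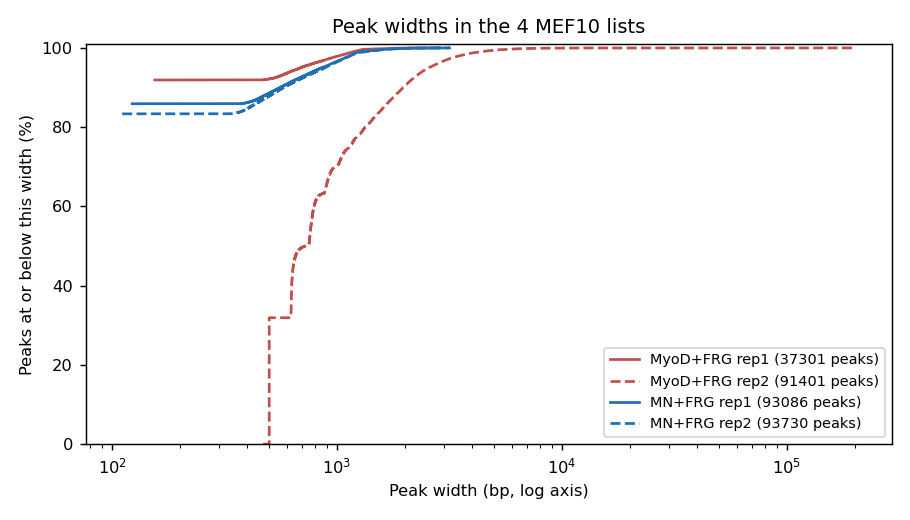
Cumulative percentage of peaks (vertical axis) by peak width in bp (horizontal axis, logarithmic) in each of the 4 MEF10 lists; solid lines are replicate 1 and dashed lines replicate 2. Each of 3 lists steps up almost at once, at 111, 123 and 155 bp, while MyoD+FRG replicate 2 rises from 500 bp, the width of 31.9% of its peaks, and extends to 202465 bp.

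The largest single class of regions was shared by all 4 libraries: 30397 regions, 23.3% of those called. The next was called by every library except MyoD+FRG replicate 1, with 25627 regions (19.7%), followed by regions of MyoD+FRG replicate 2 alone, with 24102 (18.5%). The MN+FRG-only regions made up 15.4% of called regions and the MyoD+FRG-only regions 2.34%. With 2 libraries against 2 an exact permutation test cannot give a p below 0.33, so these counts carry no test of the group difference.

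Taken one at a time, the MyoD+FRG libraries gave opposite balances. Against both MN+FRG libraries, replicate 1 alone had 3400 regions of its own (3.2% of 106194 called in those 3 libraries) and lacked 45755 that both MN+FRG libraries called (43.1%). Replicate 2 alone had 27154 of its own (20.9% of 129948) and lacked 20537 (15.8%). The direction of the excess thus depended on the MyoD+FRG library used.

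The 2 strict sets rest on different libraries. Of the 3400 regions of replicate 1, 89.8% were also called in replicate 2, against 11.2% of the 27154 of replicate 2 that were also in replicate 1. On the MN+FRG side, 98.0% of the regions absent from replicate 2 were absent from replicate 1 too, against 44.0% the other way. Replicate 1 therefore set which regions could be MyoD+FRG-only, and replicate 2 set which could be MN+FRG-only.

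The choice of MN+FRG library mattered less. With MN+FRG replicate 1 alone the counts were 3871 MyoD+FRG-only and 28950 MN+FRG-only, and with MN+FRG replicate 2 alone they were 3790 and 29336. When only peaks wider than each list's most common width were counted, 459 regions were MyoD+FRG-only and 1269 were MN+FRG-only. This was a rough stand-in for stronger peaks, chosen because the lists hold no heights. It acted unequally, keeping 62245 peaks of MyoD+FRG replicate 2 and 3016 of replicate 1. In MN+FRG it kept 13105 and 15591.

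**Figure D2:**
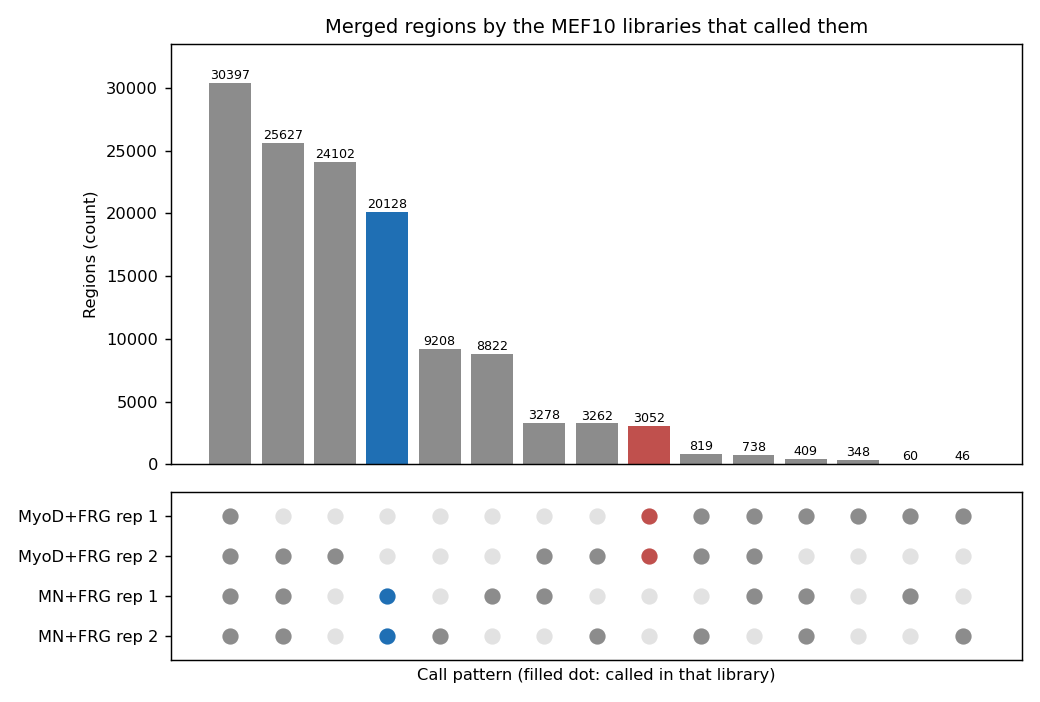
Number of regions (vertical axis) for each pattern of calls over the 4 MEF10 libraries (horizontal axis). Regions in all 4 libraries number 30397; the MN+FRG-only pattern holds 20128 and the MyoD+FRG-only pattern 3052, fewer than the 24102 called in MyoD+FRG replicate 2 alone.

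Across the 24 libraries that the rule did not use, MyoD+FRG-only regions were called mostly in cells given doxycycline, and rarely in fibroblasts without it. Day 0 libraries called 9.17% and 7.93% of them, and FRG libraries without doxycycline called 13.5% and 13.9%. Both Dox+FRG day 6 libraries, matched in day and small molecules, called 88.1% and 87.8%. The 2 sets of values were far apart, although FRG libraries called more regions of all kinds, a mean of 51.2% of the 253225, than any other group.

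Within the Dox+FRG time course the share of MyoD+FRG-only regions called was 21.3% and 12.5% at day 2, 85.3% and 70.5% at day 4, and 87.7% and 74.4% at day 8. The day 2 libraries lay below every library of days 4, 6 and 8. Dox alone reached 92.0% ± 1.14 (SD, n = 2) at day 4 and 93.9% ± 2.59 (SD, n = 2) at day 8, so most of these regions were also called when MyoD was induced without the small molecules.

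By first appearance, 1724 of the 3052 regions (56.5%) were first called by both Dox+FRG libraries at day 4. Day 6 added 541 (17.7%), day 2 had 250 (8.19%), and 180 (5.90%) were already in both day 0 libraries. A further 311 (10.2%) were called by both libraries at none of days 0 to 8. Day 4 was thus the most common day of first appearance. The share first called at day 4 was 5.30% among regions in all 4 MEF10 libraries and 0.959% among MN+FRG-only regions.

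Satellite cells split by state. Activated satellite cell libraries called 52.3% and 61.7% of the MyoD+FRG-only regions, and quiescent ones called 20.3% and 12.8%. Samples labelled GFP called 43.1% and 39.6% at day 8 and 55.7% ± 1.34 (SD, n = 2) at day 10. All activated libraries were above all quiescent ones. Over all 253225 regions, the groups other than day 0, FRG and Dox called 17.4% to 24.7%.

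MyoD+FRG-only regions were seldom private to MEF10 cells. The median region was called by 13 of the other 24 libraries (quartiles 10 and 16). Only 7 regions (0.229%) were called by none of them and 8 by all. Regions found with doxycycline but in no day 0 or FRG library numbered 1574 (51.6%) when they were also in a satellite cell library and 806 (26.4%) when they were not. Among regions called in all 4 MEF10 libraries these shares were 3.95% and 0.763%. A call with doxycycline could come from 8 groups and a call without it from 2. No MyoD+FRG-only region was called in satellite cells alone.

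MN+FRG-only regions showed another distribution. FRG libraries without doxycycline called 68.4% and 67.2% of them, and day 0 libraries called 31.0% and 29.6%. Dox+FRG day 6 libraries called 7.96% and 8.31%. Dox alone called 20.7% and 23.4% at day 4 and 32.6% and 44.1% at day 8, and activated satellite cells 9.05% ± 2.66 (SD, n = 2). Over all 253225 regions the group means were 51.2% in FRG, 26.4% at day 0, 24.7% in Dox+FRG day 6, 35.2% and 45.1% in Dox at days 4 and 8, and 21.0% in activated satellite cells. Set against these, the MN+FRG-only share was above the share of all regions in FRG, by a smaller margin at day 0, and below it in Dox+FRG day 6, Dox and activated satellite cells. FRG cells, sampled at another day than the MEF10 cells, called the largest share of both.

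MN+FRG-only regions were also called less widely. The median was 4 of 24 libraries (quartiles 2 and 7), 3041 regions (15.1%) were called in no other library, and 4 in all. A further 4584 (22.8%) were called in day 0 or FRG cells but in no doxycycline or satellite cell library. Another 6756 (33.6%) were called both with and without doxycycline and not in satellite cells. Satellite cells alone accounted for 90 (0.447%). Among regions called in all 4 MEF10 libraries, 0.0724% took the place of the 22.8% and 8.93% that of the 33.6%.

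The contrast between Dox+FRG day 6 and FRG day 8 cells separates the sets most directly. Of the MyoD+FRG-only regions, 2185 (71.6%) were in both Dox+FRG day 6 libraries and neither FRG library, and 46 (1.51%) the reverse. Of the MN+FRG-only regions, 189 (0.939%) followed the first pattern and 11092 (55.1%) the reverse. Among regions called in all 4 MEF10 libraries the shares were close, at 5.82% and 5.77%. Those regions were called widely, at a median of 23 of the other 24 libraries, so few could show either pattern. Over all 253225 regions the reverse pattern was common. It held for 44356 regions absent at day 0 and for 14277 in both day 0 libraries. The first pattern held for 11792 regions absent at day 0.

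**Figure D3:**
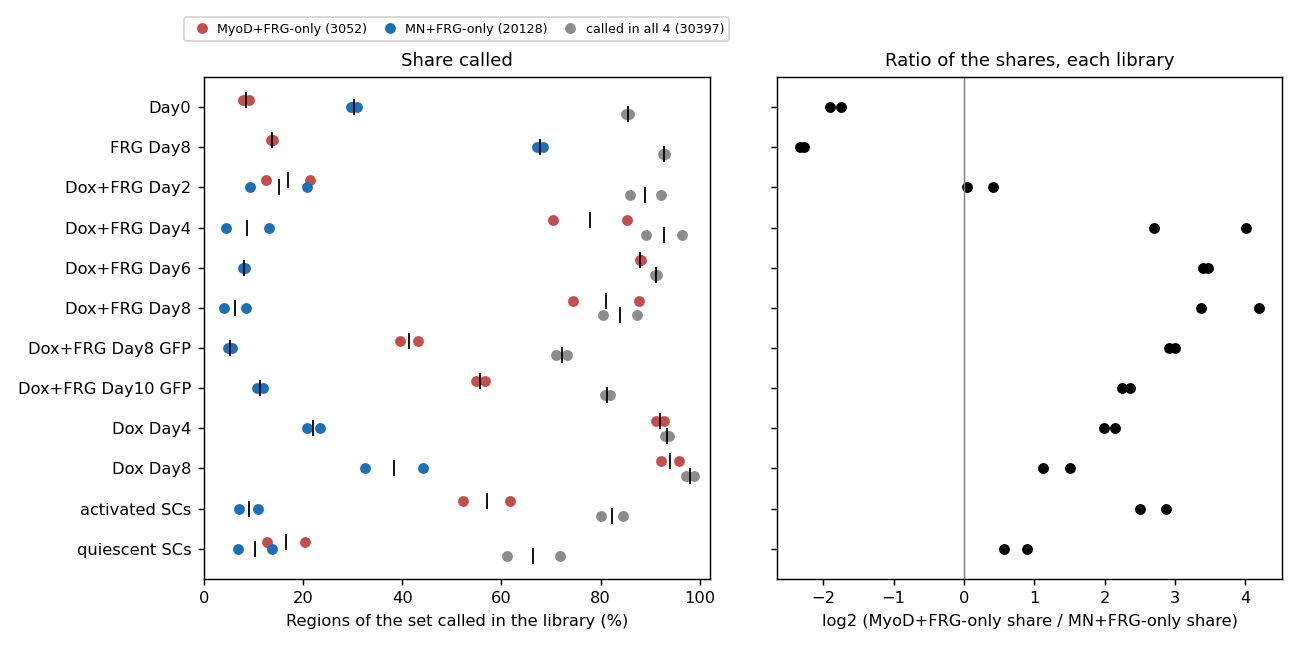
Left, percentage of each set of regions called (horizontal axis) in the 24 libraries outside MEF10, by group (vertical axis), with a point per library and a tick at the group mean; right, the log2 ratio of the MyoD+FRG-only share to the MN+FRG-only share in each library. MyoD+FRG-only regions sit near 88% in Dox+FRG day 6 and near 14% in FRG day 8, where MN+FRG-only regions sit near 8% and 68%, and the ratio is below 0 only in day 0 and FRG libraries.

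Each library's preference was summarised as the log2 ratio of the share of MyoD+FRG-only regions called to the share of MN+FRG-only regions called, which takes out how many regions a library called overall only in part. The mean ratio was 2.43 ± 1.21 (SD, n = 8 group means) in groups with doxycycline and −2.07 ± 0.34 (SD, n = 2 group means) in day 0 and FRG cells, a difference of 4.50 (two-sided exact permutation test over group means, p = 0.0444, adjusted p = 0.0444 over 3 tests). The groups did not overlap, at 0.23 to 3.78 against −2.31 to −1.83, and this p is the smallest the design allows. It took the groups as independent, although those with doxycycline were days or GFP samples of Dox+FRG and days of Dox. Whether these shared cultures is not stated. Dox+FRG day 2 was the lowest group with doxycycline. Its libraries called 21.3% and 12.5% of MyoD+FRG-only regions, below their 22.8% and 17.6% of all regions.

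Dox+FRG cells had a higher ratio than Dox cells at matched days 4 and 8. The means were 3.57 ± 0.68 and 1.69 ± 0.47 (SD, n = 4 libraries each), a difference of 1.88 (two-sided exact permutation test, p = 0.0286, adjusted p = 0.0429). The libraries did not overlap, at 2.70 to 4.20 against 1.12 to 2.14. Each side held 2 groups in duplicate, so this p took the 2 libraries of a group as independent. Over group means, 2 against 2, no exact p below 0.33 is possible. The MyoD+FRG-only share was not higher with FRG, at group means of 77.9% (day 4) and 81.0% (day 8) against 92.0% and 93.9%. The MN+FRG-only share was lower with FRG, at 4.05% to 13.2% over the 4 libraries against 20.7% to 44.1%. Dox libraries also called more regions in all, 35.2% and 45.1% of the 253225 in group means, and the part of list length in this difference was not tested.

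Satellite cells had a mean ratio of 1.71 ± 1.14 and fibroblasts without doxycycline one of −2.07 ± 0.28 (SD, n = 4 libraries each). The difference was 3.77 (two-sided exact permutation test, p = 0.0286, adjusted p = 0.0429), and satellite values of 0.56 to 2.86 did not overlap fibroblast values of −2.34 to −1.76. Here too each side held 2 groups in duplicate, and the p took the 2 libraries of a group as independent. Over group means no exact p below 0.33 is possible. Quiescent cells, at 0.73 ± 0.24 (SD, n = 2), were the lower pair of satellite cells, and activated cells were at 2.68 ± 0.26 (SD, n = 2). Quiescent libraries called 20.3% and 12.8% of MyoD+FRG-only regions, slightly below their 22.2% and 14.5% of all regions. Their positive ratio thus reflected a low MN+FRG-only share, at 13.8% and 6.86%.

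The FRG comparison depends on MyoD+FRG replicate 2. With the sets redefined without that library, its difference was 0.61 (two-sided exact permutation test, p = 0.0857, adjusted p = 0.0857). The doxycycline and satellite cell differences were then 3.26 and 2.76, and their unadjusted exact permutation p stayed at 0.0444 and 0.0286, the smallest possible, while adjustment together with the FRG test gave 0.0667 for each. With only peaks wider than the most common width the 3 differences were 3.84 (doxycycline), 2.50 (FRG) and 2.73 (satellite cells), with exact permutation p of 0.0444, 0.0857 and 0.0286 and adjusted p of 0.0667, 0.0857 and 0.0667.

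The sets of each MyoD+FRG library taken alone show the same orientation to different degrees. The 3400 regions of replicate 1 were called at 83.2% in Dox+FRG day 6, 53.1% in activated satellite cells, 14.5% in FRG and 8.69% at day 0. The 27154 regions of replicate 2 were called at 38.1%, 21.6%, 20.4% and 8.89%. The latter are mainly the 24102 regions of replicate 2 alone, which Dox+FRG day 6 cells called at 31.8% and Dox day 4 cells at 43.5%. Regions of both MN+FRG libraries that replicate 1 lacked were called at 79.8% in FRG and 31.3% in Dox+FRG day 6 cells, and those that replicate 2 lacked at 68.2% and 8.57%.

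The question was then turned round, with regions classed by libraries outside MEF10. Fibroblast-only regions (16652) were in both day 0 libraries and no satellite cell library. MyoD+FRG replicates 1 and 2 called 11.4% and 44.1% of them, and MN+FRG replicates called 61.0% and 60.8%. Both MN+FRG libraries were above both MyoD+FRG libraries. Dox+FRG day 6 cells called 17.7% ± 0.408 (SD, n = 2) and FRG cells 74.8%. Both MN+FRG libraries lay between these values, and the MyoD+FRG libraries lay on either side of the Dox+FRG value.

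Activated-only regions (7314) were in both activated satellite cell libraries and in no quiescent or day 0 library. MyoD+FRG called 32.5% and 68.9%, and MN+FRG 32.8% and 33.4%. The groups could not be separated here, because replicate 1 lay just under both MN+FRG libraries while replicate 2 lay far above them. Dox+FRG day 6 cells called 60.4% and FRG cells 20.7% in group means.

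Satellite-shared regions (3119), in all satellite cell libraries and no day 0 library, were called at 40.4% and 75.2% in MyoD+FRG and at 49.2% and 48.9% in MN+FRG. Quiescent-only regions (5637), in both quiescent libraries and in no activated or day 0 library, were called at 2.25% and 20.3% in MyoD+FRG and at 19.2% and 19.3% in MN+FRG. In both classes the MyoD+FRG libraries fell on either side of the MN+FRG pair. The 19407 common regions, called in every day 0 and satellite cell library, were at 98.4%, 98.2% and 98.1% in every MEF10 library but MyoD+FRG replicate 1, which called 82.5%. The widest 95% Wilson interval of these shares was 47.5% to 51.0%, for satellite-shared regions in MN+FRG replicate 1; it covers counting error over regions only.

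Because MyoD+FRG replicate 1 had a shorter list, the balance of classes within each library is given too. The log2 ratio of the activated-only share to the fibroblast-only share was 1.51 and 0.64 in MyoD+FRG replicates 1 and 2, and −0.90 and −0.86 in the MN+FRG replicates. Both MyoD+FRG libraries were tilted to activated-only regions and both MN+FRG libraries to fibroblast-only regions. MyoD+FRG replicate 1 differed from MN+FRG through its fibroblast-only share of 11.4%. Its activated-only share of 32.5% was no higher than theirs, at 32.8% and 33.4%. The balance also differed between the MyoD+FRG replicates, and the part of list length in it was not tested. The quiescent-only to activated-only ratio was −3.85 and −1.76 in MyoD+FRG and −0.77 and −0.79 in MN+FRG.

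Among the MyoD+FRG-only regions themselves, 931 (30.5%) were activated-only, 270 (8.85%) were shared by satellite cells, 36 (1.18%) were fibroblast-only and 26 (0.852%) were quiescent-only. Among the MN+FRG-only regions, 2954 (14.7%) were fibroblast-only, 357 (1.77%) quiescent-only and 223 (1.11%) activated-only. Regions in all 4 MEF10 libraries held 5.62% fibroblast-only, 3.44% activated-only, 2.67% satellite-shared and 0.240% quiescent-only. All 253225 regions held 16652 fibroblast-only, 7314 activated-only, 5637 quiescent-only and 3119 satellite-shared regions.

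Regions that differed in MEF14 cells under Dox+FRG separated the groups in both directions. Regions termed opened by Dox+FRG (11792, in both day 6 libraries and in no day 0 or FRG library) were called at 34.9% and 82.5% in MyoD+FRG and at 25.0% and 25.1% in MN+FRG. Regions termed closed by Dox+FRG (14277, in both day 0 and both FRG libraries and in neither day 6 library) were called at 9.94% and 51.2% in MyoD+FRG and at 74.6% and 74.7% in MN+FRG. Both MyoD+FRG libraries lay above both MN+FRG libraries for opened regions and below them for closed regions.

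**Figure D4:**
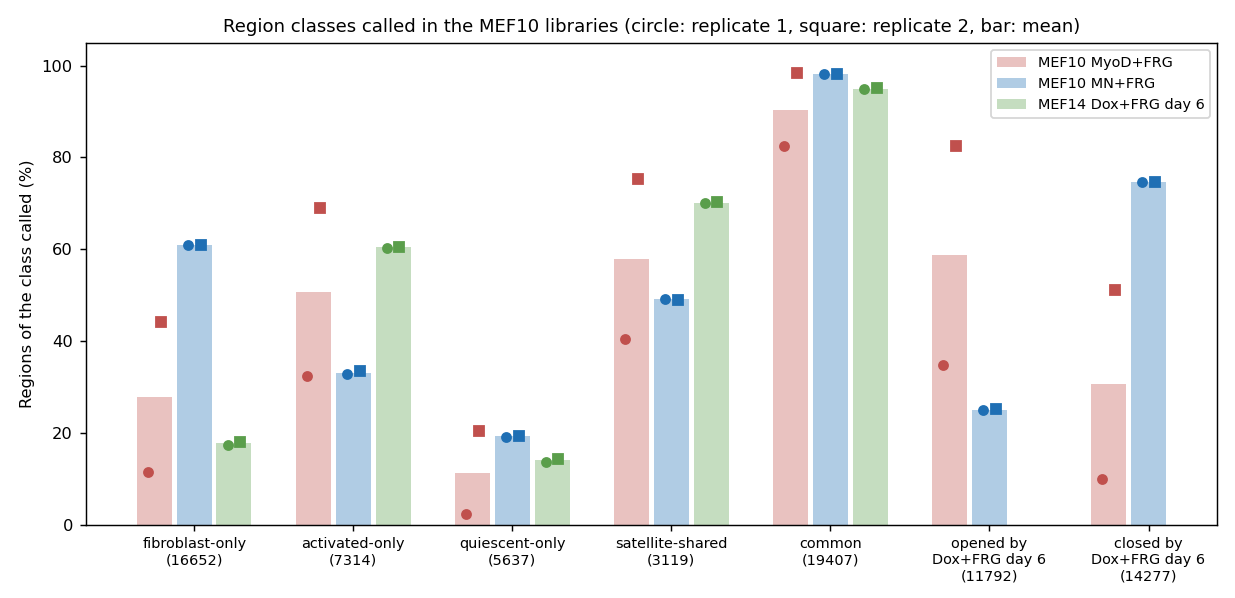
Percentage of each class of regions called (vertical axis) in MyoD+FRG, MN+FRG and, except for the classes it defines, Dox+FRG day 6; circles are replicate 1, squares replicate 2 and bars the means, and the number of regions stands under each class. Fibroblast-only and closed regions are higher in both MN+FRG libraries, opened regions in both MyoD+FRG libraries, and the other classes overlap between the groups.

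The log2 ratio of opened to closed shares was 1.81 and 0.69 in MyoD+FRG against −1.58 and −1.57 in MN+FRG. Regions opened by Dox (19005, in all day 4 and day 8 Dox libraries and in no day 0 or FRG library) were called at 22.6% and 62.0% in MyoD+FRG and at 20.6% in each MN+FRG library. Regions opened by FRG (44356, in both FRG libraries and in no day 0 or Dox+FRG day 6 library) were called at 1.11% and 14.7% in MyoD+FRG and at 28.8% and 29.2% in MN+FRG. Both MN+FRG libraries were above both MyoD+FRG libraries in this last class and below both in the Dox class.

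The members divide in the same way. Of the MyoD+FRG-only regions 2052 (67.2%) were among those opened by Dox+FRG, 14 among those closed and 23 among those opened by FRG. Of the MN+FRG-only regions 160 (0.795%) were among those opened by Dox+FRG, 3345 (16.6%) among those closed and 6142 (30.5%) among those opened by FRG. Regions in all 4 libraries held 4.40% opened and 4.10% closed by Dox+FRG, and 1.04% opened by FRG. Over all 253225 regions the classes were of unequal size. They held 11792 regions opened by Dox+FRG, 14277 closed and 44356 opened by FRG, so the last class was the most common in any case.

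MN+FRG cells still called some of the regions opened by Dox+FRG. Of those 11792, 2308 (19.6%) were in both MN+FRG libraries, 1289 (10.9%) in one of them and 8195 (69.5%) in neither. Those in both were called early in the Dox+FRG course: 41.2% ± 11.3 (SD, n = 2) at day 2, against 8.04% ± 4.00 (SD, n = 2) for those in neither. The values at day 4 were 85.0% ± 8.67 and 62.4% ± 14.5 (SD, n = 2), and at day 8 they were 88.2% ± 8.33 and 78.9% ± 15.5 (SD, n = 2).

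The regions that MN+FRG shared were also called more often in muscle stem cells. Activated satellite cells called 64.6% ± 4.63 of those in both MN+FRG libraries and 40.8% ± 6.89 of those in neither (SD, n = 2), and quiescent cells called 26.5% ± 7.23 and 13.1% ± 5.05 (SD, n = 2). MyoD+FRG replicate 1 called 58.3% of those in both and 26.1% of those in neither, and replicate 2 called 92.6% and 78.5%. The same regions were thus called more widely in each of these groups, and no test was made of the split.

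Of the 14277 regions closed by Dox+FRG, 9602 (67.3%) were in both MN+FRG libraries and 2561 (17.9%) in neither. Those kept in MN+FRG were still called at 55.1% ± 15.4 (SD, n = 2) in Dox+FRG at day 2, and those absent at 13.4% ± 6.90 (SD, n = 2). Dox cells at day 8 called 71.1% and 33.8% in group means.

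**Figure D5:**
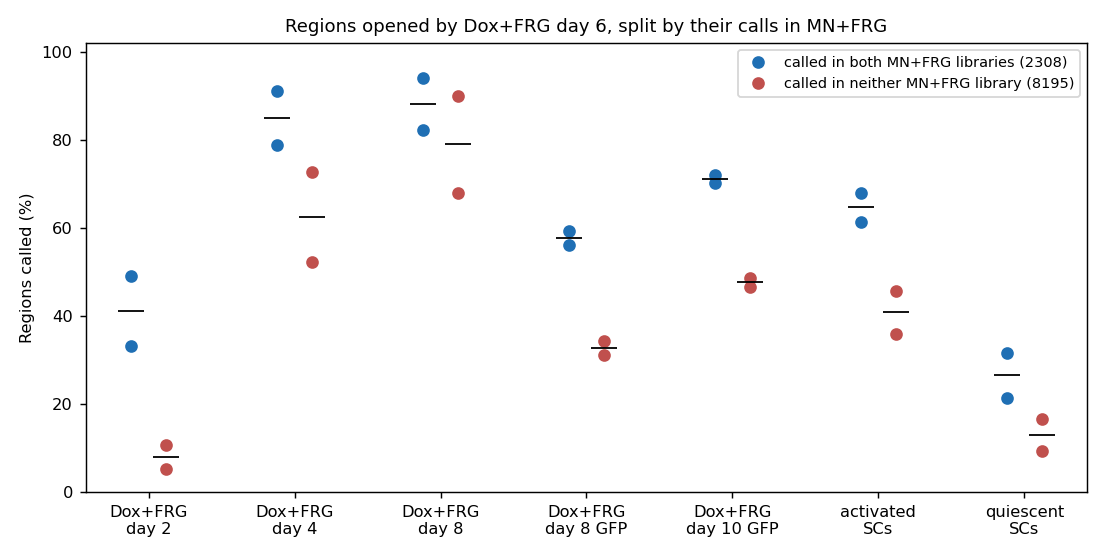
Percentage called (vertical axis) of the regions opened by Dox+FRG at day 6, in other groups (horizontal axis; SCs are satellite cells), for the 2308 regions in both MN+FRG libraries and the 8195 in neither; each point is 1 library and each line a mean. At day 2 of Dox+FRG the regions shared with MN+FRG average 41.2% and the others 8.04%, and the gap is narrower at day 8, at 88.2% and 78.9%.

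Whole lists were compared by the Jaccard index, the number of regions in both libraries over the number in either. The MN+FRG libraries were at 0.745 with each other and the MyoD+FRG libraries at 0.380, below their mean index with MN+FRG libraries of 0.417. MyoD+FRG replicate 1 had 97.6% of its regions in replicate 2, and replicate 2 had 38.4% of its regions in replicate 1. Nearly all of replicate 1 was thus contained in replicate 2, whose list was longer.

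Outside MEF10 the MyoD+FRG libraries were nearest to Dox+FRG cells by this index, which also depends on list length. Replicate 1 was closest to a Dox+FRG day 4 library (0.555) and replicate 2 to the other Dox+FRG day 4 library (0.598), each above the 0.380 between the pair. The MN+FRG libraries were nearest to a Dox+FRG day 2 library (0.523 and 0.520). By group mean they were nearest to day 0 (0.494 and 0.491) and FRG cells (0.494 and 0.494). By group mean MyoD+FRG replicate 1 was nearest to Dox+FRG day 4 (0.517), and replicate 2 to Dox+FRG day 6 (0.554) with day 4 just below (0.547). The share of a library's own regions gave another order. MyoD+FRG replicate 1 had 95.9% and 97.9% of its regions in the longer Dox day 8 lists, and at most 93.8% in a Dox+FRG list. Replicate 2 had 74.2% and 80.4% of its regions in the Dox day 8 lists, and at most 65.3% in a Dox+FRG list.

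The 2 sets also differed in peak form. The median merged region was 776 bp wide among MyoD+FRG-only regions, where replicate 2 always contributes, 213.5 bp among MN+FRG-only regions and 1287 bp among regions in all 4. Peaks wider than the list's most common width were present at 6.21% and 7.25% of MN+FRG-only regions in the MN+FRG replicates, against 25.9% and 31.0% of regions in all 4. For MyoD+FRG-only regions they were present at 1.34% in replicate 1 and 79.1% in replicate 2, against 9.66% and 93.3%. In every MEF10 list the set private to its group had fewer wide peaks than the shared set.

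The 3041 MN+FRG-only regions called in no other library were narrower, at a median of 143 bp against 232 bp for the other 17087. They had wide peaks at 4.93% and 4.87% in the MN+FRG replicates, against 6.44% and 7.67%.

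By position, MyoD+FRG-only regions made up 1.56% (chromosome 19) to 3.05% (chromosome 18) of the called regions of a chromosome, against 2.34% overall. MN+FRG-only regions made up 12.0% (chromosome 7) to 18.4% (chromosome 3) on the autosomes and 24.02% on chromosome X, or 683 of its 2844. MyoD+FRG-only regions on X were 66, or 2.32%. The X chromosome held 2.09% and 1.67% of the peaks of the MyoD+FRG lists and 2.33% and 2.39% of those of the MN+FRG lists.

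In windows of 100000 bp, 2709 held a MyoD+FRG-only region and 12443 an MN+FRG-only region, of 21921 with any called region. Both kinds occurred in 1473 windows, or 54.4% of those with a MyoD+FRG-only region, while 56.8% of all called windows held an MN+FRG-only region. Most MyoD+FRG-only regions stood alone: 308 windows had 2 or more.

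The window with the most MyoD+FRG-only regions was chr8:10000001-10100000 (mm9), with 6 among 15 called regions and no MN+FRG-only region. MyoD+FRG replicates called 7 and 14 regions there and MN+FRG replicates 5 and 4. Day 0 libraries called 1 each, Dox+FRG day 6 libraries 10 and 8, Dox day 4 libraries 12 and 13, activated satellite cells 6 and 8, and quiescent satellite cells none. Of the other libraries with doxycycline, those of Dox+FRG day 4 called 10 and 9 and those of Dox day 8 called 12 each. Fewer were called in Dox+FRG day 8 (6 and 5), Dox+FRG day 2 (4 and 5), GFP day 8 (1 and 2) and GFP day 10 (4 and 7). FRG libraries without doxycycline called 5 and 4. The libraries with doxycycline thus ranged from 1 to 13 regions there. The next windows, with 4 each, were chr3:101300001-101400000, chr7:6700001-6800000, chr13:32800001-32900000 and chr13:37700001-37800000.

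The window with the most MN+FRG-only regions was chr3:123100001-123200000 (mm9), with 8 among 12 called. MN+FRG replicates called 11 and 10 regions there and MyoD+FRG replicates 1 and 4. FRG libraries called 12 and 13, day 0 libraries 2 and 3, and Dox+FRG day 6 libraries 3 each. FRG and MN+FRG cells were high in this window and day 0 cells were low. Windows with 7 each were chr2:16400001-16500000, chr2:124100001-124200000, chr3:92700001-92800000 and chr3:101700001-101800000. No mm9 annotation was used, so no gene is given for these positions.

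Single regions show the extremes of each set. The MyoD+FRG-only region at chr1:156308423-156309202 was called in all 24 other libraries, so only the MN+FRG lists lacked it. The one at chr5:134664246-134664873 was called in none of the 24. On the other side, the MN+FRG-only region at chr6:72339489-72340652 was called in all 24, and the 144 bp region at chr1:6310762-6310905 in none.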

How the data were processed

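ATAC-seq peak lists of 28 libraries were used. Per the labels, 60000 cells entered each reaction, amplification took 13 PCR cycles and size selection kept 100 to 1000 bp. The deposited lists are other data than counts or signal: positions of peaks that the authors called per library, with BWA, HOMER and mm9 named in the submitters' processing notes. For versions, threshold and read filters nothing is given in the sources used here. The lists hold no score or read number, so depth is unknown.

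Peaks of all libraries overlapping by at least 1 bp were merged, and a library called a region where it had a peak. Starts were read as counted from 0 and printed from 1. Groups came from the sample labels. Shares were counted with Python 3.11.15, pandas 2.3.3 and numpy 2.4.6, and 3 two-sided exact permutation tests were run with scipy 1.17.1, adjusted by Benjamini-Hochberg. The scripts were tested on simulated data. Whether paired libraries of a group are separate cultures is not stated, so the spread within a group is possibly technical. The doxycycline test used the spread of group means over conditions and days. The other 2 tests used the spread of libraries pooled over 2 groups on each side. Windows and single regions were named by rank: the 5 windows with most members of each set, and members called in most or none of the other libraries, by position. The members, lists and tests were chosen with earlier results of these data known. The classes opened and closed by Dox+FRG, Dox or FRG, and the balances of class shares, were added after the lists were seen. Gene loci, marker genes and motifs planned for the regions were not analysed, since no mm9 genome or annotation was used here.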

Additional observations from a re-analysis of the deposited data

How the results depend on the processing

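The log2 differences of the 3 tests kept their sign under the alternatives run, but the balance of the counts did not: without MyoD+FRG replicate 1 there were more MyoD+FRG-only (27154) than MN+FRG-only (20537) regions. MyoD+FRG replicate 2 and peak width limit most values. Counting only peaks wider than the most common width gave 459 MyoD+FRG-only and 1269 MN+FRG-only regions, per-replicate counts of 462 and 7718 (replicate 1) and 47008 and 1271 (replicate 2), and log2 differences of 3.84, 2.50 and 2.73, none past the threshold. With 200 bp centres replicate 1 alone had 5845 and replicate 2 lacked 31059. Regions called in at least 6 other libraries left 6672 MN+FRG-only. Leaving out 1 MEF10 library gave 3400 to 27154 MyoD+FRG-only and 20537 to 45755 MN+FRG-only regions, and log2 differences of 3.00 to 4.05 (doxycycline), 0.61 to 1.95 (FRG) and 2.40 to 3.41 (satellite cells). Without MyoD+FRG replicate 2 the 3 adjusted values missed the threshold, the doxycycline and satellite cell ones through adjustment with the FRG test. Leaving out peaks over 2000 bp moved the common-region difference (MyoD+FRG minus MN+FRG) from −7.74 to −20.8 percentage points. The Jaccard index within MyoD+FRG was then 0.311, with centres 0.275 and with wide peaks 0.0483. Within MN+FRG it was 0.742 with regions merged from 27 lists, 0.735 from the 4 lists, 0.741, 0.688 and 0.527 in the other settings, and between groups 0.171 with wide peaks. Requiring 50% overlap changes nothing by construction, since each peak lies inside its region.

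Same-numbered MEF10 libraries did not deviate together (correlation −0.0063). With 2 libraries per group and the unlike list of MyoD+FRG replicate 2, this value cannot show whether same-numbered libraries shared a batch or culture. With the replicate block the counts were 3052 and 20128 by construction, and the FRG difference of 1.88 had an exact permutation p of 0.0556, the smallest its 36 splits allow.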
